A study of Mus musculus with 2 samples.

Results

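Granzyme C to F CD8 T cells are CD8 T cells with RNA of Gzmc, Gzmd, Gzme or Gzmf, here called Gzmc-f cells. They were picked by gates on unique molecular identifiers (UMIs), the tags that count single RNA molecules. A cell had at least 200 detected genes, under 10% of its UMIs in mitochondrial genes, at least 3 UMIs of Cd3e, Cd3d, Cd3g and Trac together and at least 2 of Cd8a and Cd8b1. It had no UMI of Cd4, Tcf7, Klra1, Klra6 or Klra7, under 20 UMIs of the macrophage genes C1qa, C1qb and C1qc and under 2 of the division genes Mki67 and Top2a. Finally it had at least 1 UMI summed over Gzmc, Gzmd, Gzme and Gzmf, a cut through a range of counts that does not define a cell type. Of 18112 cells that passed the quality limits, 130 met every gate, 125 of them from control tumours and 5 from FDPS-knockout tumours. They were set against the 959 cells (389 control and 570 knockout) that met every gate but the last, the other non-dividing CD8 T cells without a Tcf7 UMI.

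Granzymes are serine proteases that killer lymphocytes store in granules and, after perforin has opened the way, release into the cell they attack. Granzyme A and granzyme B are the best studied. Mice carry a run of further genes beside Gzmb that humans largely lack, among them Gzmc, Gzmd, Gzme, Gzmf and Gzmg, and these are known from strongly stimulated T and NK cells. Tcf7 encodes TCF-1, which marks CD8 T cells that can still renew themselves, so cells without it in a tumour include effector and exhausted cells.

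B16-F10, a melanoma line of the mouse, had been grown under the skin for 14 days, and viable host leukocytes (CD45+) were then sorted from the tumours. The melanoma cells were either knocked out for FDPS, the farnesyl diphosphate synthase of the mevalonate pathway, or wild type (WT, the control), and the labels give neither the age nor the strain of the mice and no treatment. The labelled cell type, Melanoma, is that of the injected line and not of the sorted cells. Each group was 3 tumours in 1 droplet library with no map from cells to tumours, so there was no replicate. Every comparison below is of 2 libraries or of cells within 1 library, without a test, and its 95% intervals (exact Clopper-Pearson for shares, exact Poisson for summed UMIs) cover counting error only.

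The knockout library held 127186298 UMIs in 9130 barcodes and the control library 208936136 in 10882, of which 8697 and 9415 cells were kept. Of the barcodes, 30 occurred in both libraries, and 0 of these were Gzmc-f cells. In the control library, Gzmc-f cells were deeper than the others, with a median of 18790 UMIs (1152 to 76052) against 11904 (970 to 40471). They had a median of 4283 detected genes against 3531. Their median mitochondrial share was 2.29% against 2.55%, and their ribosomal protein share 21.8% against 20.01%.

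The 4 genes lie on the minus strand of chromosome 14 in GRCm38. Gzmc spans positions 56231441 to 56234656, Gzmf 56205263 to 56211417, Gzmd 56129556 to 56132608 and Gzme 56117626 to 56120625. Gzmg (56156582 to 56159579) lies among them, and Gzmb (56258838 to 56262260) beside them. The 250 bases before each gene's start are printed because the genes occurred together in a part of the cells, as given below. In 63.2% of the control Gzmc-f cells 1 of the 4 was detected. They are the RefSeq promoter windows of GRCm38.p6, minus strand, 5′ to 3′, at chr14:56234658-56234907 for Gzmc, chr14:56132594-56132843 for Gzmd, chr14:56120626-56120875 for Gzme, chr14:56211408-56211657 for Gzmf and chr14:56262335-56262584 for Gzmb. The RefSeq starts differ from the gene positions above, which are from GENCODE: the windows of Gzmd and Gzmf begin inside the GENCODE gene, and that of Gzmb lies clear of its GENCODE end. Capitals mark matches to TGACGTCA (the cyclic AMP response element, CRE), to TGTGGT or its reverse complement ACCACA (the core bound by RUNX factors), and to TGANTCA (AP-1).
Gzmc: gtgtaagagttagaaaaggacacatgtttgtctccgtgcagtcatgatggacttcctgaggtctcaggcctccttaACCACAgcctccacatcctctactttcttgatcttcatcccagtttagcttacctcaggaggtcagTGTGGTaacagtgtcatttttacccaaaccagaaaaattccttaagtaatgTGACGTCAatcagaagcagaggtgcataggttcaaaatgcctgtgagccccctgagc
Gzmd: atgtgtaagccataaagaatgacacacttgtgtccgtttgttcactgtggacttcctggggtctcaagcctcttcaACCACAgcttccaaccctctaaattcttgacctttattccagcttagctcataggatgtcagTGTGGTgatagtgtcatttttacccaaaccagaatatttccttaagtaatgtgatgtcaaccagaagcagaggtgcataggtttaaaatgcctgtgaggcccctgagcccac
Gzme: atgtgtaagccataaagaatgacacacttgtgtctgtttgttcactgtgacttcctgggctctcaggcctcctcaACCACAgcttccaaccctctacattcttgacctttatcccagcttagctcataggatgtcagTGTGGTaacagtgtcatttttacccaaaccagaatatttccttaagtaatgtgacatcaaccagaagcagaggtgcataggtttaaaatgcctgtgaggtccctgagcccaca
Gzmf: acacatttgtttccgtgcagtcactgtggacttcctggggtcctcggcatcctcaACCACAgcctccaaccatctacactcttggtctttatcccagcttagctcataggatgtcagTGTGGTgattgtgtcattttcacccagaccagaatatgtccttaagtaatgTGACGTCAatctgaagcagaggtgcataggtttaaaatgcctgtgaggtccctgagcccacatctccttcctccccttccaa
Gzmb: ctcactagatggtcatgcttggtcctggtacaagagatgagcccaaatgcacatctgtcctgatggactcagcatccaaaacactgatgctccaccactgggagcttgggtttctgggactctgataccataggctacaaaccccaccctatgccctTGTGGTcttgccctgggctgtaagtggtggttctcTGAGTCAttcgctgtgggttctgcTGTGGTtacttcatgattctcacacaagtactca

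These motifs were searched on both strands and picked after the sequences had been seen, and no 2 matches overlap. A match describes letters and not a bound site. Gzmc and Gzmf hold the CRE letters, at -57 to -50 and -82 to -75 from the start. At the matching place Gzmd has TGATGTCA (C4T) and Gzme TGACATCA (G5A), with positions counted from 1 at the 5′ end of TGACGTCA. Gzmg, not printed, holds the CRE letters too, at -77 to -70. CRE letters occurred in 1.55% of 32851 mouse promoter windows of the same length. Each of the 4 windows holds 1 ACCACA and 1 TGTGGT, letters found in 14.0% of windows, and the window of Gzmb holds TGTGGT at 2 places. Gzmb alone among the 5 printed holds the AP-1 letters, found in 6.75% of windows. The STAT letters TTCNNNGAA, found in 7.02% of windows, were in none of them.

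The 4 genes are close copies, and this limits how far their counts can be told apart. Between their 6 pairs, promoter windows were 70.2% to 94.8% identical and the longest coding transcripts 68.8% to 90.0%, with Gzmd and Gzme the most alike. Of the 50-base windows of a transcript, 16.7% of Gzmd and 16.4% of Gzme occurred unchanged in another of the 4, against 4.14% for Gzmc and 4.60% for Gzmf. Windows shared with Gzmg were not counted. Its transcript was 69.0% identical to that of Gzmc, 84.6% to Gzmd, 88.1% to Gzme and 87.5% to Gzmf. The sources used here do not say how reads shared between copies were assigned, so the split of UMIs between Gzmd, Gzme, Gzmf and Gzmg is uncertain. The sum over the genes does not depend on the split among Gzmc to Gzmf.

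Gzmc-f cells made up 24.3% (20.7% to 28.3%) of the 514 non-dividing CD8 T cells without Tcf7 of the control library. In the knockout library they were 5 of 575, or 0.870% (0.283% to 2.02%). The control share was 28.0 times the knockout share (11.7 to 87.6). Macrophages, taken below as cells that should lack these genes, had shares of 8.32% and 0.296% in the same libraries. A gap at 1 UMI was thus not particular to these CD8 T cells. Its size in macrophages is poorly known, since the knockout share is 1 of 338 cells (0.00749% to 1.64%). Since a deeper cell passes the gate more easily, each cell was also thinned to 5000 UMIs, which left out 80 control and 81 knockout cells as too shallow. The shares were then 18.9% (15.3% to 22.9%) and 0.607% (0.125% to 1.76%), a ratio of 31.1 (10.3 to 154.0). With 1 library a group, the genotype cannot be told apart from the library, the tumours or the sort.

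Free RNA in droplets gives UMIs in cells that do not express a gene, so the share was also taken in cells that should lack these genes. In the control library, 8.32% of 1958 macrophages (median 21940 UMIs) and 7.81% of 269 B cells (median 21032 UMIs) had a Gzmc-f UMI. Of these macrophages and B cells, 10 and 2 had 2 UMIs and the rest had 1. Exactly 1 UMI was found in 7.81% of macrophages and in 8.56% of the non-dividing CD8 T cells without Tcf7, whose median depth was lower (13154.5 UMIs). The 44 control Gzmc-f cells at 1 UMI therefore cannot be told apart from cells with free RNA. At least 2 UMIs were found in 15.8% of these CD8 T cells (81 cells) against 0.511% of macrophages and 0.743% of B cells. At least 10 were found in 44 CD8 T cells and in 0 macrophages. In the knockout library each of the 5 cells had 1 UMI, and their share lay inside the interval of the macrophage share (1 of 338 cells, 0.296%, 0.00749% to 1.64%). At 2 or more UMIs it had 0 of 575 cells, which allows a share of up to 0.522% with 3 counts as the limit of a count of 0.

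Across the other cells of the control library the genes were not limited to these cells. Dividing CD8 T cells had a Gzmc-f UMI in 47.0% (586 of 1246) and held 67.9% of the library's 41005 Gzmc-f UMIs, against 12.2% in the Gzmc-f cells described here. Their median depth was 30902.5 UMIs. Thinned to 5000 UMIs the share was 27.8% (25.3% to 30.4%). NK cells, which also kill through granules, had the genes in 17.2% of 180 cells, and 10.9% after thinning (6.11% to 17.7%). Non-dividing CD8 T cells with Tcf7 had 1 UMI each in 5 of 69 cells (7.25%), and CD4 T cells had a share of 8.46%, or 3.57% after thinning (0.982% to 8.89%). Both shares were near those of the macrophages (8.32%) and B cells (7.81%) taken above as cells that should lack these genes. At least 2 UMIs were found in 4 of the 130 CD4 T cells. In the knockout library, dividing CD8 T cells had the genes in 2.76% of 905 cells, Tcf7-positive cells in 0 of 434 (up to 0.691% allowed by the same limit of 3 counts) and NK cells in 7.44% of 457. NK cells held 34.5% of that library's 857 Gzmc-f UMIs.

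**Figure D1:**
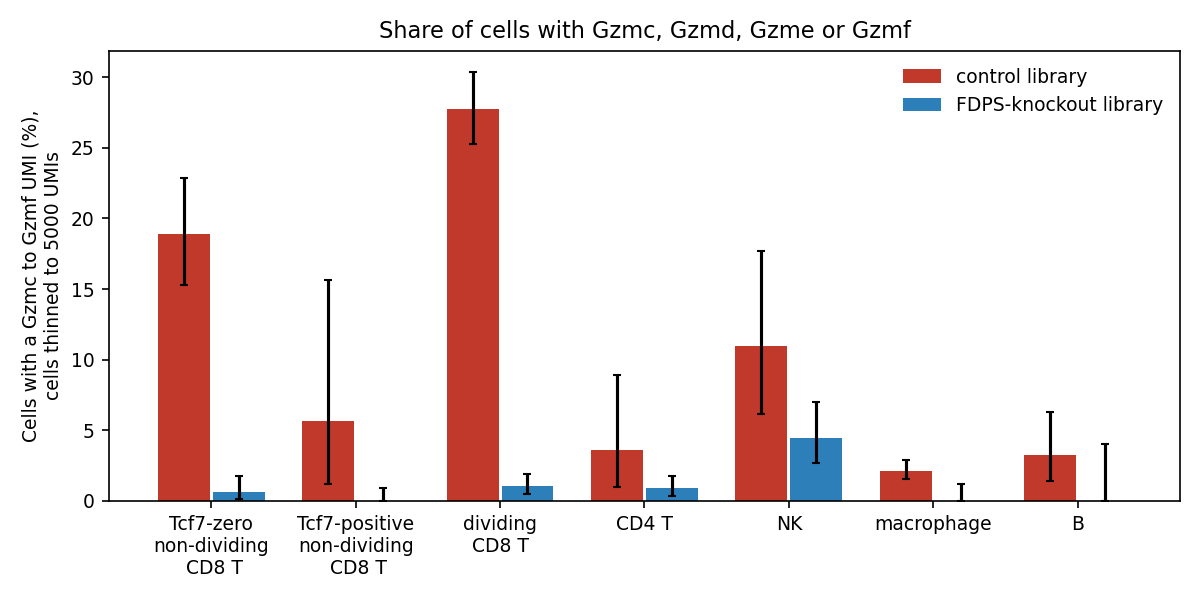
Bars give the percentage of cells with at least 1 UMI of Gzmc, Gzmd, Gzme or Gzmf after each cell was thinned to 5000 UMIs, by cell class (x axis), in the control library (red) and the FDPS-knockout library (blue), and error bars are exact 95% binomial intervals for counting error. Among non-dividing CD8 T cells without Tcf7 the control bar stands at 18.9% and the knockout bar at 0.607%, and control macrophages and B cells stand at 2.10% and 3.24%.

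The markers were those of αβ CD8 T cells. Cd8a, a gate gene, was at 646.5 CPM (UMIs of a gene scaled to a fixed total over its group of cells) in control Gzmc-f cells and 715.6 CPM in the other cells. Each of 11 αβ T cell genes outside the gates was detected, with 0 of 11 at least 2-fold apart. Trbc2, the constant part of the T cell receptor beta chain, was found in 95.2% of Gzmc-f cells, and Lck, the kinase that starts receptor signalling, in 97.6%. Trdc of γδ T cells was at 0. Foxp3 of regulatory T cells was at 0 too, while the 3 genes of that list summed to 155.3 CPM against 61.4, most of it Il2ra, which activated CD8 T cells also express. The NK receptors Ncr1 and Klrb1c had 2 and 1 UMIs in all. The 6 NK genes summed to 208.2 CPM (507 UMIs) in Gzmc-f cells and 190.6 CPM in the others, from 0 to 3918 and from 0 to 6613 CPM per cell, and most of it was Fcer1g (109.7 and 89.1 CPM) and Tyrobp (77.2 and 66.6 CPM). RNA of other cells was present in both groups, and its part in the differences below was not tested. Of 8 macrophage and monocyte genes, 8 were detected, at 193.0 CPM together in Gzmc-f cells and 231.5 CPM in the others, and their summed level per cell ran from 0 to 3071 and from 0 to 10757 CPM. Of 5 melanoma genes, 5 were detected, at 86.3 and 133.1 CPM. A C1q UMI was found in 74.4% of Gzmc-f cells and 75.1% of the others, with a median of 1 in both.

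The cells differed widely in the 4 genes that chose them, which are given as a description. Gzmc was in 106 of the 125 control cells with 2858 UMIs, Gzmf in 53 with 1414, Gzme in 27 with 499 and Gzmd in 20 with 252. Their summed level was 2063 CPM (2006 to 2121), yet the median cell had 3 UMIs. A single cell held 2006 of the 5023 UMIs, or 39.9%, and the 10 highest cells held 78.2%. Without that cell the level was 1279 CPM. So the summed level describes a few cells with very much of this RNA rather than the common cell.

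Most cells showed 1 of the genes, and a small set showed all of them. One gene was detected in 79 cells, 2 genes in 26, 3 in 5 and 4 in 15. Gzmc was the lone gene in 62 cells, Gzmf in 10, Gzmd in 4 and Gzme in 3. Of the cells with Gzmf, 77.4% also had Gzmc, and so did 81.5% of those with Gzme and 15 of the 20 with Gzmd. These shares lie below the 84.8% of all 125 cells that had Gzmc, and the gate on the 4 genes shapes all of them. The 4 genes together were seen at the high end of the sum, as the plot of UMIs in each cell shows, and cells with few UMIs cannot show 4 genes.

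**Figure D2:**
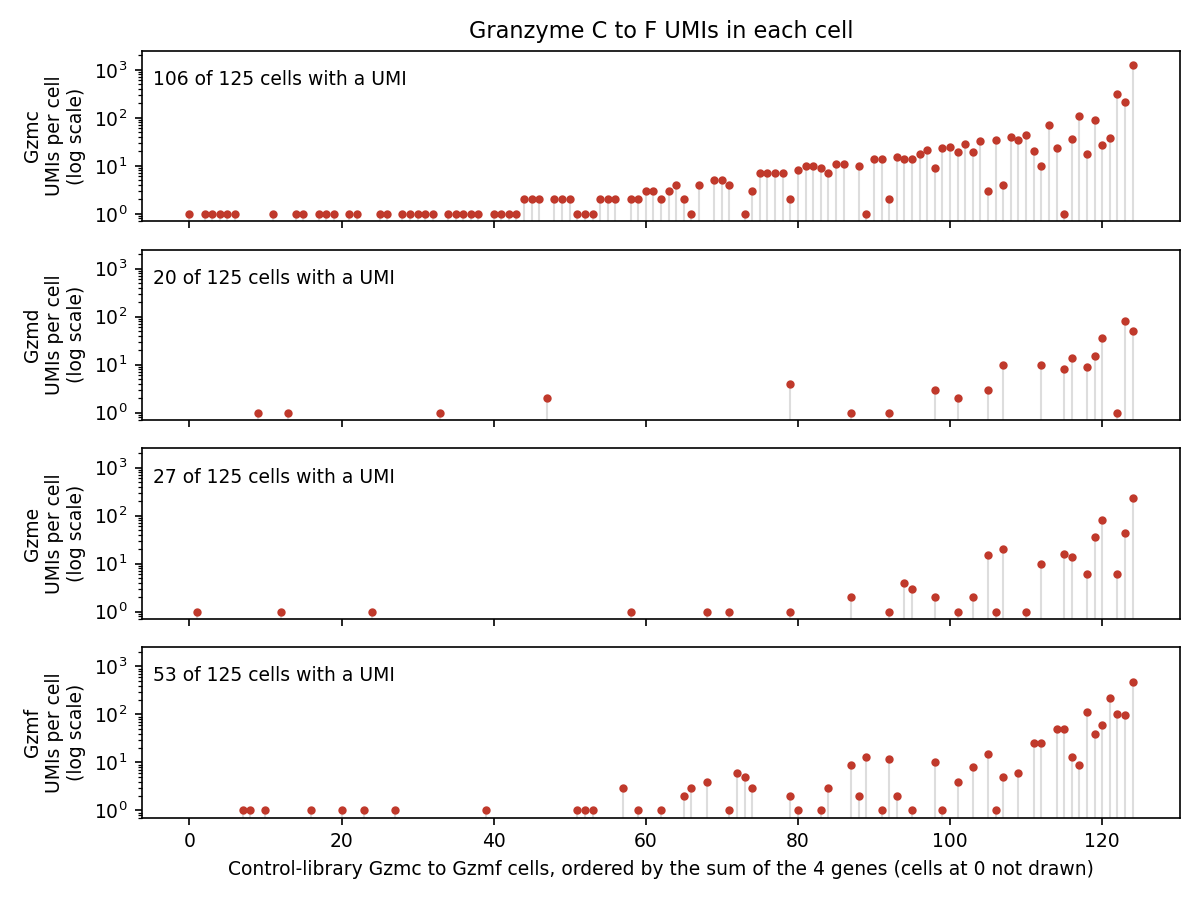
Each panel plots 1 gene (Gzmc, Gzmd, Gzme, Gzmf) as UMIs per cell on a log axis, and each position on the x axis is 1 of the 125 control Gzmc-f cells, ordered by the sum of the 4 genes, with cells at 0 not drawn. Gzmc is present in 106 cells over the whole range, while most Gzmd and Gzme UMIs are in the highest cells at the right.

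The rest of the transcriptome was compared between the 125 control Gzmc-f cells and the 389 other cells. Levels are CPM of summed UMIs, differences are log2 ratios of CPM + 5, and a gene counts as apart when it differs by at least 2-fold on that scale. Genes averaging 10 CPM or more over both groups were used. Of these 7977 genes, which leave out the gate genes, 59 (0.74%) were higher in Gzmc-f cells and 37 (0.464%) lower, together 1.2%. A gene under 10 CPM in 1 group reached the filter through the other group alone, so its direction was bound. Such genes are among the 59 and the 37, and their number was not counted. The median of all genes was -0.08. Of the 59, 6 had over 50% of their UMIs in 1 cell, and 20 were under 2-fold without the gene's UMIs in its own highest cell. Ratios of named genes without their own highest cell were taken in this way too. The other UMIs of that cell stayed in the total, so these ratios are somewhat lower than with the whole cell left out. With each cell given equal weight, 53 of the 59 and 29 of the 37 were still past 2-fold, and 58 and 36 genes were past it with the other cells reweighted to the depth of the Gzmc-f cells. With cells of at least 2 UMIs in place of at least 1, 80 genes were higher and 140 lower.

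**Figure D3:**
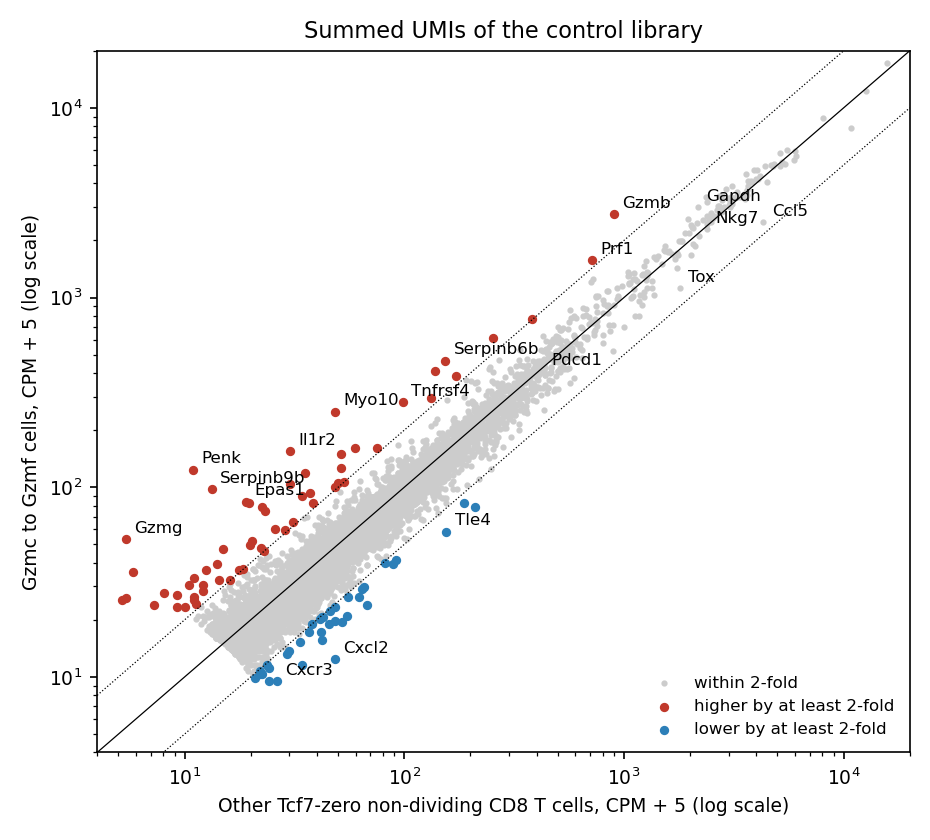
Each point is a gene of the control library, with its level in the 389 other cells on the x axis and in the 125 Gzmc-f cells on the y axis (CPM + 5, both log scales), the solid line marking equal levels and the dotted lines a 2-fold difference. The 59 higher genes (red), such as Gzmb and Prf1, and the 37 lower genes (blue), such as Tle4 and Cxcl2, lie off a narrow diagonal, and Pdcd1 and Nkg7 lie on it.

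Of 17 measured genes of a granzyme and cytotoxic list, 6 were at least 2-fold higher and 0 lower. The 6 were Gzmb, Prf1, Gzmg and 3 serpins, and the list median was -0.02, with 8 of 17 ratios above 0. Gzmb, the granzyme that sets off cell death by caspases, was at 2751 CPM (2685 to 2817) in Gzmc-f cells and 896.3 CPM (870.1 to 923.1) in the others, a log2 ratio of 1.61. One cell held 20.4% of the Gzmb UMIs of the Gzmc-f cells, and the ratio was 1.28 without those UMIs. Prf1, perforin, was at 1574 against 711.6 CPM. Its ratio of 1.14 became 0.98 without the Prf1 UMIs of its highest cell, whose depth stayed in the total. Gzmg was at 48.5 CPM (118 UMIs in 12 cells) against 0.405 CPM (2 UMIs), with the doubt about shared reads given above. The other 11 of the list were within 2-fold, the lowest ratio being that of Gzma at -0.98 (9.45 CPM against 23.5), and Gzmk was at 50.1 against 82.2 CPM (-0.66). Nkg7, a granule membrane protein and the most abundant of them, was at 2285 and 2382 CPM.

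Inhibitors of granzymes were among the higher genes. Serpinb9, which encodes an inhibitor of granzyme B that protects killer cells from their own granules, was at 291.6 CPM against 127.6 (log2 ratio 1.16). Serpinb6b was at 459.6 CPM against 148.9 (1.59). Serpinb9b was at 92.8 CPM against 8.30 (2.88) and was found in 20.8% of Gzmc-f cells and 4.11% of the others. It passed the filter of 10 CPM through the Gzmc-f cells alone, so its direction was bound to follow. All 3 serpins, which lie near each other on chromosome 13, remained past 2-fold without the UMIs of each in its highest cell.

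Of the 11 genes of the locus neighbour list, Gzmb and Gzmg passed the level filter, and the other genes were at or near 0. Gzmg passed it through the Gzmc-f cells alone, so its difference was bound to follow. The direction was bound likewise for Serpinb9b, Penk, Upp1, Kit, Cd209a, Mgl2 and Lgals7, at 0.203 to 8.30 CPM in the other cells. Among the lowest genes named below, Cxcl2, Wdfy4, Cxcr3 and Cadm1 passed it through the other cells alone. They were at 4.52 to 7.39 CPM in Gzmc-f cells, so their direction was bound too. The mast cell and neutrophil proteases Mcpt1, Mcpt2, Mcpt4, Mcpt9, Cma1, Cma2 and Ctsg were at 0 in the Gzmc-f cells, and Gzmn and Mcpt8 had 1 UMI each.

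Of the receptors for costimulation and for cytokines, Tnfrsf4, Tnfrsf9 and Il2ra were past 2-fold. Tnfrsf4 (OX40), a costimulatory receptor of activated T cells, was at 275.6 CPM against 93.8 and was found in 68.8% of Gzmc-f cells against 33.7%. Tnfrsf9 (4-1BB), a related receptor, was at 764.0 CPM against 374.5 (log2 ratio 1.02, and 0.94 without the Tnfrsf9 UMIs of its highest cell). They were the 2 of 8 costimulatory receptors past 2-fold, and the list median was 0.16. Of 11 cytokine receptor genes 1 was past 2-fold, Il2ra (CD25), the alpha chain that makes the IL-2 receptor sensitive, at 144.6 CPM against 46.4 (1.54). Il2rb, its beta chain, was at 524.5 and 502.1 CPM.

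Inhibitory receptors differed by less than 2-fold in 11 of 11 measured genes, with a median of -0.02. Pdcd1 (PD-1) was at 402.5 CPM (377.7 to 428.5) in Gzmc-f cells and 422.7 CPM (404.8 to 441.3) in the others. Tox, which encodes a nuclear factor of exhausted T cells and was the most abundant of this list, was at 1113 and 1794 CPM, a log2 ratio of -0.69. Ctla4 (CTLA-4), named after its values were seen, was at 462.9 against 266.0 CPM, a ratio of 0.79. Both went further with more Gzmc-f RNA. In cells with 10 or more Gzmc-f UMIs Ctla4 was at 587.1 CPM and Tox at 857.1, each past 2-fold from the cells at 0.

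Genes of sugar breakdown leaned one way by small steps. Of 20 glycolysis and hypoxia genes, 18 had a ratio above 0 and 0 were past 2-fold, with a median of 0.38 against -0.08 for all genes tested. Gapdh was at 2987 CPM against 2173 and Aldoa at 1365 against 1041. The smaller median of 0.10 was found when cells with a Trbv2 UMI were compared.

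Most genes of memory, adhesion and interferon response had ratios below 0, as did most of all genes tested, whose median was -0.08. Among 8 measured memory and egress genes Bach2, a repressor that holds back effector genes, was 2-fold lower at 36.6 CPM against 86.5, and 2 of 8 had a ratio above 0. Among 8 residency and adhesion genes 0 had a ratio above 0 and 0 were past 2-fold, with Itga4, an integrin chain, at 573.4 and 799.3 CPM. Among 12 type I interferon-stimulated genes 0 had a ratio above 0, with a median of -0.25, and Rsad2, an antiviral enzyme, was past 2-fold at 34.5 against 83.9 CPM. The medians of the memory and the adhesion lists were -0.27 and -0.40. Among cells with a Trbv2 UMI the memory, adhesion and interferon medians were 0.21, -0.10 and -0.33, so the memory list did not keep its direction there.

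Chemokine genes were split. Ccl9 was higher (99.4 CPM against 25.1), with 43.4% of its UMIs in 1 cell. Cxcr3, the receptor for interferon-induced chemokines, was lower, at 4.52 CPM (11 UMIs) against 21.3. Ccl5, the most abundant chemokine, was at 2489 against 4311 CPM, a log2 ratio of -0.79. In cells with 10 or more Gzmc-f UMIs, Ccl3 and Ccl4 were higher, at 1411 and 1844.5 CPM against 717.7 and 1254 at 0. At 1 UMI they were lower, at 548.0 and 774.2 CPM. The lists of effector transcription factors (15 measured), killer cell receptors (8), NR4A, EGR and AP-1 genes (10), nutrient transporters and stress genes (10), DNA replication (11) and mitosis (3) had 0 genes past 2-fold. Their medians were -0.01, 0.13, 0.08, -0.0021, -0.16 and 0.67.

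Among the 15 highest genes, the best supported were seen in many cells. Myo10, a myosin of cell protrusions, was at 245.2 CPM (225.9 to 265.7) against 43.3 (37.7 to 49.6) and was found in 51.2% of Gzmc-f cells against 18.0% of the others. Il1r2, a decoy receptor for IL-1, was at 150.3 CPM against 25.1 and found in 46.4% against 12.9%. Epas1, which encodes the hypoxia factor HIF-2α, was at 78.9 CPM against 14.0 and found in 48.0% against 8.48%. Unc13b, a vesicle release protein, was found in 50.4% of cells against 14.4%, and Tff1, a secreted trefoil peptide, in 34.4% against 7.71%. Upp1, uridine phosphorylase, and Kit, the stem cell factor receptor, were rarer, in 25 and 16 of the 125 cells. Both passed the level filter through the Gzmc-f cells alone.

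Other genes of the 15 rested on few cells. Penk, which encodes the opioid precursor proenkephalin, had the largest ratio (3.51). Of its 289 UMIs, 85.8% were in 1 of 7 cells, and the ratio was 1.01 without those UMIs. Lgals7, a galectin, was in 6 cells. Cd209a and Mgl2, lectins of dendritic cells and macrophages, were in 3 cells and 1 cell. Cxcl9, an interferon-induced chemokine of myeloid cells, had 60.3% of its UMIs in 1 cell. The ratios of Cxcl9 and Mgl2 were -0.26 and -0.12 once cells with the highest doublet scores had been removed, and that of Cd209a was 0.75.

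The 10 lowest genes included Tle4, a corepressor, at 53.4 CPM against 150.5, in 53.6% of Gzmc-f cells and 68.9% of the others. Gm2682, a long noncoding RNA, was at 73.9 against 205.4 CPM. Gprin3, Zfp831 and Pacsin1 were at 18.9, 10.7 and 14.4 CPM against 62.6, 37.3 and 47.2. Tcrg-C2, a constant gene of the T cell receptor gamma locus that αβ T cells can also transcribe, was at 16.02 against 49.8 CPM. Cadm1, an adhesion molecule, was at 4.52 CPM against 19.2. Cxcl2 and Wdfy4, genes of myeloid cells and cross-presenting dendritic cells, were at 7.39 and 6.57 CPM against 43.1 and 29.2. Both were found in under 10% of the cells of either group, and the part of other cells' RNA in them was not tested.

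Within the Gzmc-f cells, levels of several genes followed the amount of Gzmc-f RNA. Cells were placed in bins of 1 (44 cells), 2 to 9 (37), 10 to 49 (31) and 50 or more UMIs (13), beside the 389 cells at 0. Gzmb was at 896.3, 1432, 2136, 2495 and 6472 CPM from 0 upwards. Serpinb6b was at 148.9, 232.0, 373.2, 638.7 and 708.7 CPM. Myo10 was at 43.3, 106.7, 148.7, 345.3 and 484.0 CPM. Each of these 3 genes was thus higher in every next bin, though the intervals of Serpinb6b overlap between the last pair. The highest bin holds the cell with 2006 UMIs. Without it, Gzmb was at 3819 CPM there, Serpinb6b at 538.2 and Myo10 at 553.4, so Serpinb6b was then below the bin before it. In these 3 genes, cells at 1 UMI, just inside the gate, stood nearer to the cells at 0 than to the cells at 10 or more. Several of the lowest genes went the other way, among them Gm2682, Gprin3, Zfp831, Pacsin1, Cxcr3 and Cadm1. Gm2682 was at 205.4 CPM at 0, 76.9 at 1 UMI and 68.0 at 10 or more.

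Prf1 and Tnfrsf4 went the same way with 1 exception each. Prf1 was at 711.6, 936.5, 1622, 1640 and 2492 CPM, with the middle pair of bins alike within counting error. Tnfrsf4 was at 93.8, 86.8, 196.2, 333.1 and 642.0 CPM, level at first and higher from 2 UMIs on. Tox went down over the bins at 1794, 1447, 1167, 1100 and 464.2 CPM. Tle4 was at 150.5, 95.4, 34.2, 41.3 and 32.1 CPM, low from 2 UMIs on. Pdcd1 had no such order, at 422.7, 360.1, 480.2, 383.6 and 377.8 CPM. Without the cell of 2006 UMIs the highest bin was at 1846 CPM for Prf1, 553.4 for Tnfrsf4 and 529.0 for Tox.

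The bins differ in depth, with medians of 11904, 15116.5, 20273, 18790 and 27317 UMIs per cell. Over the 44 cells with 10 or more UMIs, Gzmb was at 4016 CPM, Tnfrsf4 at 451.2, Myo10 at 398.4 and Tox at 857.1. Without the highest cell they were at 2938, 406.8, 414.9 and 909.2 CPM. With the 125 cells instead split by Gzmc-f CPM into low (42 cells), middle (41) and high (42), whose median depths were 20728, 17803 and 16931 UMIs, the order was the same for the genes just named. Gzmb was at 1807, 1936 and 4517 CPM, Tnfrsf4 at 116.5, 283.1 and 441.7, Myo10 at 103.0, 176.1 and 462.7 and Tox at 1307, 1168 and 852.7.

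**Figure D4:**
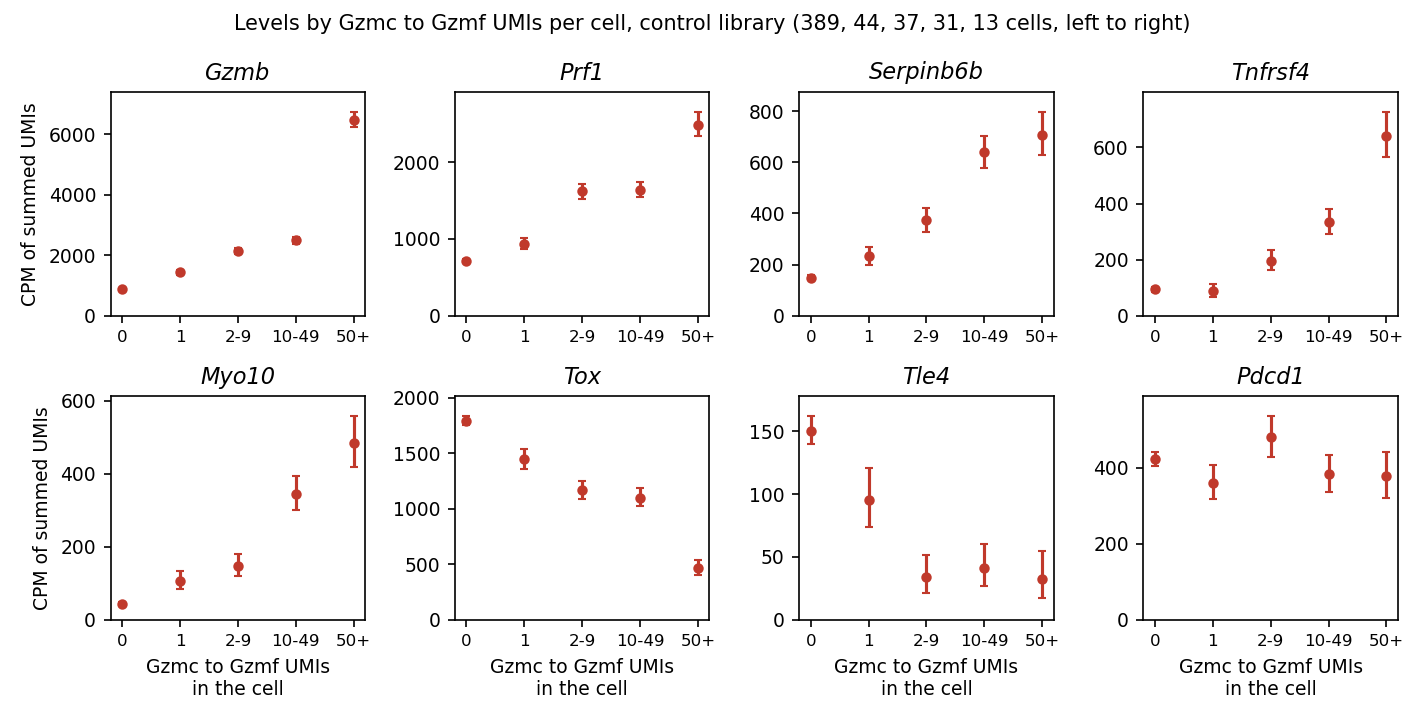
Each panel gives the level of 1 gene (CPM of summed UMIs, y axis from 0) in control cells with 0, 1, 2 to 9, 10 to 49 and 50 or more Gzmc-f UMIs (x axis), and bars are exact 95% Poisson intervals for counting error. Gzmb reaches 6472 CPM in the highest bin (3819 without the cell of 2006 UMIs), Tox is lowest there at 464.2 CPM, and Pdcd1 stays between 360.1 and 480.2 CPM.

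The summed NK, macrophage and dendritic lists were highest in cells at 1 UMI. The 6 NK genes summed to 452.6 CPM at 1 UMI, 190.6 at 0 and 83.1 at 10 or more. The 8 macrophage and monocyte genes summed to 343.0, 231.5 and 112.3 CPM, and the 5 dendritic genes to 95.4, 15.6 and 2.83 CPM. Once the cells with the highest doublet scores were removed, 37 cells at 1 UMI and 373 at 0 were left. The 3 sums were then 98.5, 104.0 and 0 CPM at 1 UMI against 132.0, 156.2 and 13.1 CPM at 0, so the order of these 2 bins was turned. Melanoma genes were at 108.2 CPM at 1 UMI and 133.1 at 0 before that removal.

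Dividing CD8 T cells of the same library, which the gates had left out, were compared in the same way, the 586 with a Gzmc-f UMI against the 660 without. Over the same 7977 genes, 0.238% were at least 2-fold higher there and 0.125% lower, and 40.3% of the ratios were above 0. Of the 59 higher genes, 53 had a ratio above 0 in dividing cells and 18 were past 2-fold. Of the 37 lower genes, 37 had a ratio below 0 and 4 were past 2-fold. Gzmb was at 2344 against 846.5 CPM (log2 ratio 1.46), Serpinb6b at 349.8 against 155.2 (1.15) and Myo10 at 162.8 against 46.5 (1.70). Gzmg was at 106.2 CPM against 0.107. Prf1 (0.96), Tnfrsf4 (0.70) and Tnfrsf9 (0.80) were under 2-fold, and Pdcd1 was at 323.5 and 326.2 CPM. Among the lowest genes, Cxcl2 (-2.64), Wdfy4 (-1.57) and Cxcr3 (-1.08) were past 2-fold in dividing cells, and Tle4 (-0.93), Zfp831 (-0.74), Gprin3 (-0.51), Cadm1 (-0.48) and Gm2682 (-0.36) were not. Both comparisons come from the control library with the same free RNA, and the dividing cells with a Gzmc-f UMI were deeper (median 38233 UMIs against 25077).

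The T cell receptor beta genes in use differed between Gzmc-f cells and the others. Of 35 Trbv genes in the files, at least 1 had a UMI in 63 of 125 Gzmc-f cells (50.4%) and in 167 of 389 other cells (42.9%), against 0 of 269 B cells and 0.409% of macrophages. Trbv2 was in 25 of the 63 cells (39.7%, 27.6% to 52.8%) and in 110 of the 167 (65.9%, 58.1% to 73.0%). Trbv3 was in 15 (23.8%, 14.0% to 36.2%) and 12 (7.19%, 3.77% to 12.2%). Trbv13-1 was in 13 (20.6%, 11.5% to 32.7%) and 22 (13.2%, 8.44% to 19.3%). Thus the intervals of Trbv2 and Trbv3 do not overlap between the groups and those of Trbv13-1 do. These genes were named out of 9 Trbv genes seen in Gzmc-f cells and 13 in the others, and the rest were not compared here. A lower share of Trbv2 leaves more cells for the other genes, so the gaps are not separate results. The intervals also treat cells as independent draws, which cells of a clone are not. The effective number of Trbv genes, the number of equally used genes that would give the same diversity, was 3.91 in Gzmc-f cells and 2.30 in the others.

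Read the other way, Gzmc-f cells were 18.5% of the cells with Trbv2 (25 of 135), 37.1% of those with Trbv13-1 (13 of 35) and 55.6% of those with Trbv3 (15 of 27). Trbv2 was in 57.1% (34.02% to 78.2%) of 21 cells at 1 UMI. It was in 31.2% (11.02% to 58.7%) of 16 cells at 2 to 9 UMIs and 30.8% (14.3% to 51.8%) of 26 cells at 10 or more. These intervals overlap, so these few cells do not separate the bins. The interval at 1 UMI holds both the 65.9% of the cells at 0 and the 39.7% of all control Gzmc-f cells. The interval at 10 or more lies below that of the cells at 0 (58.1% to 73.0%). Dividing cells had Trbv2 in 46.7% (41.6% to 51.9%) with a Gzmc-f UMI and 61.6% (56.7% to 66.2%) without. For Trbv3 they had 13.5% (10.2% to 17.3%) and 6.60% (4.43% to 9.40%). In the other cells of the knockout library Trbv2 was in 3.49% of 172 cells with a Trbv UMI and Trbv13-1 in 29.7%. Cells of 1 clone share a V gene and the 3 tumours of a library were pooled, so clones, tumours and V genes cannot be told apart.

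**Figure D5:**
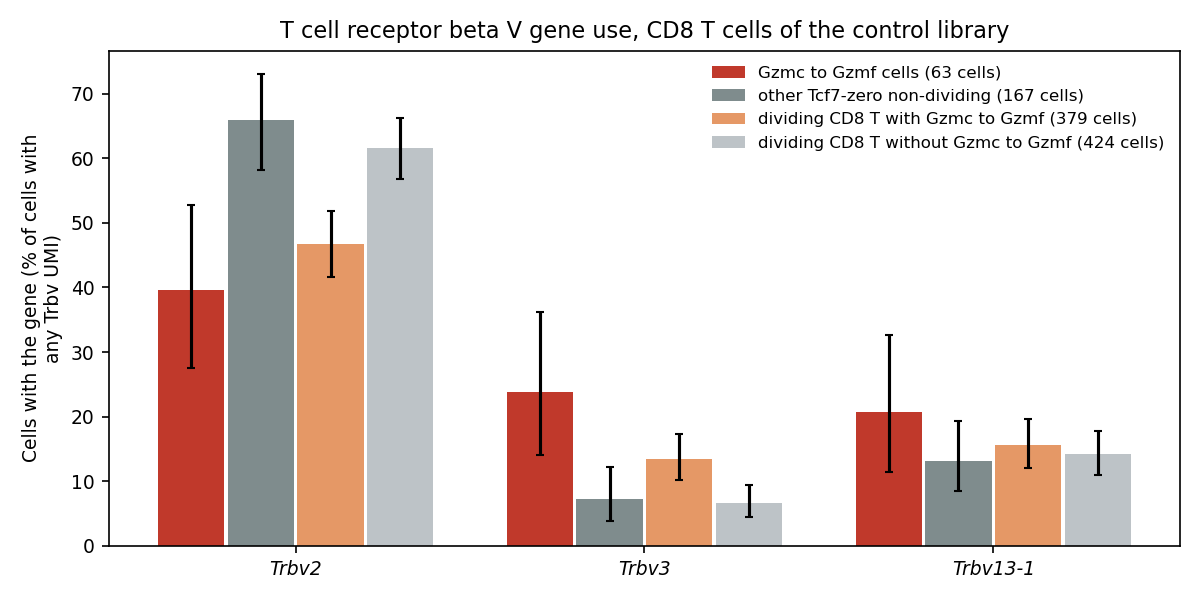
Bars give the percentage of control CD8 T cells with Trbv2, Trbv3 or Trbv13-1 among cells with any Trbv UMI, in Gzmc-f cells (63 cells), other non-dividing cells without Tcf7 (167), and dividing cells with (379) or without (424) a Gzmc-f UMI, with exact 95% binomial intervals. Trbv2 is lower and Trbv3 higher in Gzmc-f cells (39.7% and 23.8%) than in the other cells (65.9% and 7.19%).

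Some of the gene differences were also seen among cells with 1 V gene. Among control cells with a Trbv2 UMI, 25 Gzmc-f cells were set against 110 others, a comparison added after seeing the data. These cells are part of the 125 and 389 in which the genes were named, so the comparison gives no separate support. Serpinb9b (log2 ratio 3.05), Il1r2 (2.47), Myo10 (2.19), Epas1 (2.16) and Il2ra (1.63) were past 2-fold there. Of these, Serpinb9b had passed the level filter of the whole comparison through the Gzmc-f cells alone. Gzmb (0.91), Serpinb6b (0.93), Serpinb9 (0.90), Tnfrsf4 (0.86), Prf1 (0.56) and Tnfrsf9 (0.41) were not. Of these 25 Gzmc-f cells, 12 had 1 Gzmc-f UMI and 8 had 10 or more. Their median was 2 Gzmc-f UMIs and their highest 145, against 3 and 2006 over all control Gzmc-f cells. The subset thus differs in Gzmc-f content as well as in V gene, and the part of each in the smaller ratios was not tested.

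The 5 cells of the knockout library were all at the edge of the gate. Each had 1 Gzmc UMI and 0 of Gzmd, Gzme and Gzmf, in cells of 4304, 5366, 11256, 13605 and 14506 UMIs. Gzmb had 0, 1, 3, 6 and 9 UMIs in them and Prf1 0, 1, 2, 2 and 6. Myo10, Il1r2, Epas1, Serpinb6b, Serpinb9b and Il2ra were at 0 in all 5, where 0 UMIs allow up to 75.2 CPM by the exact interval. Tox had 17, 23, 26, 52 and 78 UMIs. With 5 cells no ranking of genes between the libraries was made.

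The 570 other knockout cells showed how far the libraries differ in cells without a Gzmc-f UMI. Gzmb was at 456.2 CPM (439.9 to 472.9) in them and 896.3 CPM in the 389 other control cells, and Prf1 at 237.6 against 711.6. Tnfrsf4 was at 13.8 against 93.8 CPM and Tnfrsf9 at 146.8 against 374.5. Myo10 was at 3.08 against 43.3 CPM, Il1r2 at 2.62 against 25.1 and Epas1 at 0.769 against 14.0. Serpinb6b (57.9 against 148.9 CPM), Serpinb9 (58.3 against 127.6), Serpinb9b (0.308 against 8.30), Tff1 (0.154 against 14.6) and Upp1 (0.462 against 3.04) were lower in the knockout library too. Other genes high in control Gzmc-f cells were not: Il2ra (49.4 against 46.4 CPM), Unc13b (34.3 against 30.4) and Ccl9 (24.8 against 25.1) were near level. Cxcl9 (26.3 against 17.4), Cd209a (15.7 against 0.81) and Mgl2 (4.31 against 0.405) were higher in the knockout library.

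The 10 lowest genes of the control Gzmc-f cells went both ways between the libraries, and this comparison shares the 389 other control cells with the one that chose them. Higher in the other knockout cells than in the other control cells were Tle4 (380.2 against 150.5 CPM), Gm2682 (731.1 against 205.4), Zfp831 (142.2 against 37.3), Gprin3 (100.2 against 62.6), Pacsin1 (96.3 against 47.2), Cxcr3 (67.7 against 21.3) and Tcrg-C2 (58.5 against 49.8). Lower were Cxcl2 (5.39 against 43.1), Wdfy4 (13.5 against 29.2) and Cadm1 (4.46 against 19.2). Tox was at 3581 against 1794 CPM and Ccl5 at 8308 against 4311, neither of them past 2-fold in the control Gzmc-f cells. Nkg7 (2176 against 2382 CPM) and Pdcd1 (342.9 against 422.7 CPM) were nearer to each other. These differences have no replicate check.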

How the data were processed

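Droplet single-cell libraries (10X Genomics) of 2 groups, 1 library per group, were analysed. Which end of the transcripts was read is not stated in the labels. The deposited values are whole-number UMI counts per gene and barcode, written, per the file headers, by Cell Ranger 7.2.0. The submitters' processing notes name mm10 as the build. The gene annotation used for counting was not given in the sources used here. All gene positions come from GENCODE vM21 (GRCm38), in which 32158 of 32285 identifiers (99.6%) were found. Promoter windows, found for all genes looked up, come from RefSeq on GRCm38.p6, and transcripts were aligned globally with Biopython 1.88.

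The members and all gene lists were chosen with earlier results of these data known, and the gates use measured values, so every difference is a description. UMIs were summed per cell group and scaled to CPM. A gene needed 10 CPM in the mean of both groups, and differences are log2 ratios with a pseudocount of 5 CPM, past 2-fold being called. The fold calculation was tested on simulated data. Named genes are the 15 highest and 10 lowest ratios outside gate, mitochondrial and ribosomal protein genes, and from each list genes past 2-fold or among the 2 most abundant. Marker genes, Gzma, Gzmk, Ctla4, Ccl3, Ccl4 and the locus neighbours at or near 0 were named after their values were seen. Macrophages had at least 20 C1q UMIs, B cells at least 3 UMIs of Cd79a, Cd79b and Ms4a1, and NK cells at least 2 of Ncr1 and Klrb1c, each without a UMI of the CD3 and Trac genes. Doublets were kept and removed in an alternative: Scrublet in scanpy 1.11.5 marked 0% of knockout and 1.53% of control cells by itself, so the highest scores were removed at an expected rate (635 and 820 cells, of which 8 were control Gzmc-f cells and 0 knockout ones). Alternatives for the gates, depth, doublets, pseudocount, filter, scaling and weighting are in the closing section. Cells are not replicates, so no test was made.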

Additional observations from a re-analysis of the deposited data

How the results depend on the processing

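No paired analysis was possible because each group is 1 library. The share of Gzmc-f cells was 15.8% in the control and 0% in the knockout library with at least 2 UMIs required, 8.56% and 0% with at least 10, and 18.9% in the control library after thinning to 5000 UMIs. It stayed between 23.9% and 25.6% in the control library without doublets, with stricter T cell gates, with C1q at 0 or with a mitochondrial limit of 5%.

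The 59 higher genes became 122 at 10 or more Gzmc-f UMIs, 131 after thinning, 158 with C1q at 0 (32 against 97 cells), 28 with a pseudocount of 20, 25 with a filter at 50 CPM and 232 in cells with a Trbv2 UMI (25 against 110 cells, chosen after seeing the data). The 37 lower genes became 140 at 2 or more UMIs, 300 at 10 or more, 263 after thinning, 264 with C1q at 0, 88 with a pseudocount of 1, 5 with one of 20, 60 with no filter, 6 with a filter at 50 CPM, 69 with cells weighted equally and 162 in Trbv2 cells. Small cell groups have larger counting error; otherwise the cause was not tested. Without the cell with the most Gzmc-f UMIs, also chosen after seeing the data, there were 54 and 35.

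Of the values of named genes, 202 moved little, 135 moved further and 13 changed sign. Mgl2 went to -0.11 at 2 and at 10 or more UMIs, -0.65 after thinning and -0.12 without doublets. Cxcl9 went to -0.98, -1.21 and, without doublets, -0.26. Cd209a went to -1.02 after thinning and Wdfy4 to 0.0027 under the mitochondrial limit of 5%. In Trbv2 cells Lgals7 was at -0.16, Ccl9 at -0.19, Cxcl2 at 1.17 and Wdfy4 at 1.35. Myo10, Il1r2, Epas1, Serpinb9b, Gzmg and Unc13b were past 2-fold in all 14 alternatives each. Of these, Serpinb9b and Gzmg had passed the level filter through the Gzmc-f cells alone. Depth limits low genes: with 5 knockout cells, a gene at 0 may reach 75.2 CPM.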
